A study of Mus with 4 samples.

Results

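The genes described here are 10 ligands and receptors of blood vessel growth, chosen by Ensembl gene ID among the 55487 IDs of a table of expression in newborn mouse hearts. They are the vascular endothelial growth factors (VEGFs) *Vegfa*, *Vegfb* and *Vegfc*, the VEGF receptors *Kdr*, *Flt1* and *Flt4*, the coreceptor *Nrp1*, the angiopoietins *Angpt1* and *Angpt2*, and the apelin receptor *Aplnr*. All 10 IDs were found in the table when the version suffix was dropped. The table gives IDs without names, and the names used are those that came with the list of 10 IDs. All 10 had a mean of at least 1 FPKM (fragments per kilobase, scaled to the mapped fragments of the library) over the 4 libraries and were tested.

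RNA-seq was performed on heart tissue of mice at postnatal day 0 (P0), with 2 wild-type (WT) libraries and 2 libraries labelled miR-187. The miR-187 mice overexpressed this microRNA; in the line that the study describes, on a C57BL/6J background, the microRNA was knocked in at *Rosa26* under the *Tek* (*Tie2*) promoter, which drives expression in endothelial cells. The labels do not give the zygosity of the animals, whereas the methods of the study name homozygous pups and speak of cardiac endothelial cells rather than heart tissue. Neither source says whether a library came from 1 animal or from a pool, so p-values measure the spread between libraries only. In the test used, that spread was mostly pooled over all genes tested (19.5 prior against 2 residual degrees of freedom). Standard errors and intervals are therefore not each gene's own spread. Because the table has no gene names, neither the microRNA nor the *Rosa26* transcript was examined, and the tissue was not checked against markers of heart cell types.

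VEGF-A is the main growth signal for blood vessels and acts through the receptor tyrosine kinase KDR (VEGFR2). FLT1 (VEGFR1) binds VEGF-A and VEGF-B, and part of it is released as a soluble form that holds VEGF-A away from KDR. VEGF-C acts through FLT4 (VEGFR3), best known from lymphatic vessels, and neuropilin 1 (NRP1) assists KDR. Angiopoietin 1 activates the receptor TEK and stabilises vessels, whereas angiopoietin 2 is often its context-dependent antagonist. The apelin receptor is found on endothelial cells of the developing heart. In the myocardium the VEGF-A ligand is made mainly by muscle cells and its receptors by endothelial cells.

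Positions are those of RefSeq for GRCm38.p6, the assembly of the mm10 build named in the submitters' processing notes, and span each whole gene. The ligand genes lie at chr17:46016993-46032377 (*Vegfa*, ENSMUSG00000023951), chr19:6982472-6987651 (*Vegfb*, ENSMUSG00000024962) and chr8:54077532-54186454 (*Vegfc*, ENSMUSG00000031520). The receptor genes *Kdr* (ENSMUSG00000062960, chr5:75932827-75979072) and *Flt1* (ENSMUSG00000029648, chr5:147561604-147726438) share a chromosome without being neighbours. *Flt4* (ENSMUSG00000020357) lies at chr11:49609679-49652739 and *Nrp1* (ENSMUSG00000025810) at chr8:128358591-128505476. *Angpt1* (ENSMUSG00000022309) lies at chr15:42424667-42676977, *Angpt2* (ENSMUSG00000031465) at chr8:18690263-18741562 and *Aplnr* (ENSMUSG00000044338) at chr2:85136360-85139923. RefSeq lists 10 transcripts for *Vegfa* and 6 each for *Flt1* and *Nrp1*, and a single FPKM per gene cannot separate such isoforms, including membrane-bound and soluble FLT1.

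*Flt1* is among the genes for which the study lists primers for the knock-in mice, and its primer pair is shown. They target the mouse transcript and played no part in the FPKM values.
Flt1-F: tggatgagcagtgtgaacggct
Flt1-R: gccaaatgcagaggcttgaacg

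None of the 10 genes differed between miR-187 and WT hearts beyond the spread between libraries by the test across all genes. By limma, 0 of 10 had a Benjamini-Hochberg adjusted p under 0.05, each adjusted p being close to 1, and 0 of 10 had an unadjusted p under 0.05. Over the 14325 genes tested, 0.00698% passed the adjusted threshold and 3.12% the unadjusted one. The groups did not overlap for 3 of the 10 genes, *Vegfa* and *Vegfb* with lower and *Flt4* with higher values in miR-187, against 25.5% of all genes tested (13.2% with lower and 12.3% with higher values). This share is near that of all genes and is no result about the list. The median log2 difference was -0.06 over the 10 genes and -0.04 over all genes. Differences were below 0 for 7 of the 10 genes and for 7981 of the 14325 genes tested, so this count is no result about the list. If the libraries hold whole heart tissue, as labelled, the number of cells that express a gene and the RNA of the gene per cell cannot be told apart in any of these values.

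**Figure D1:**
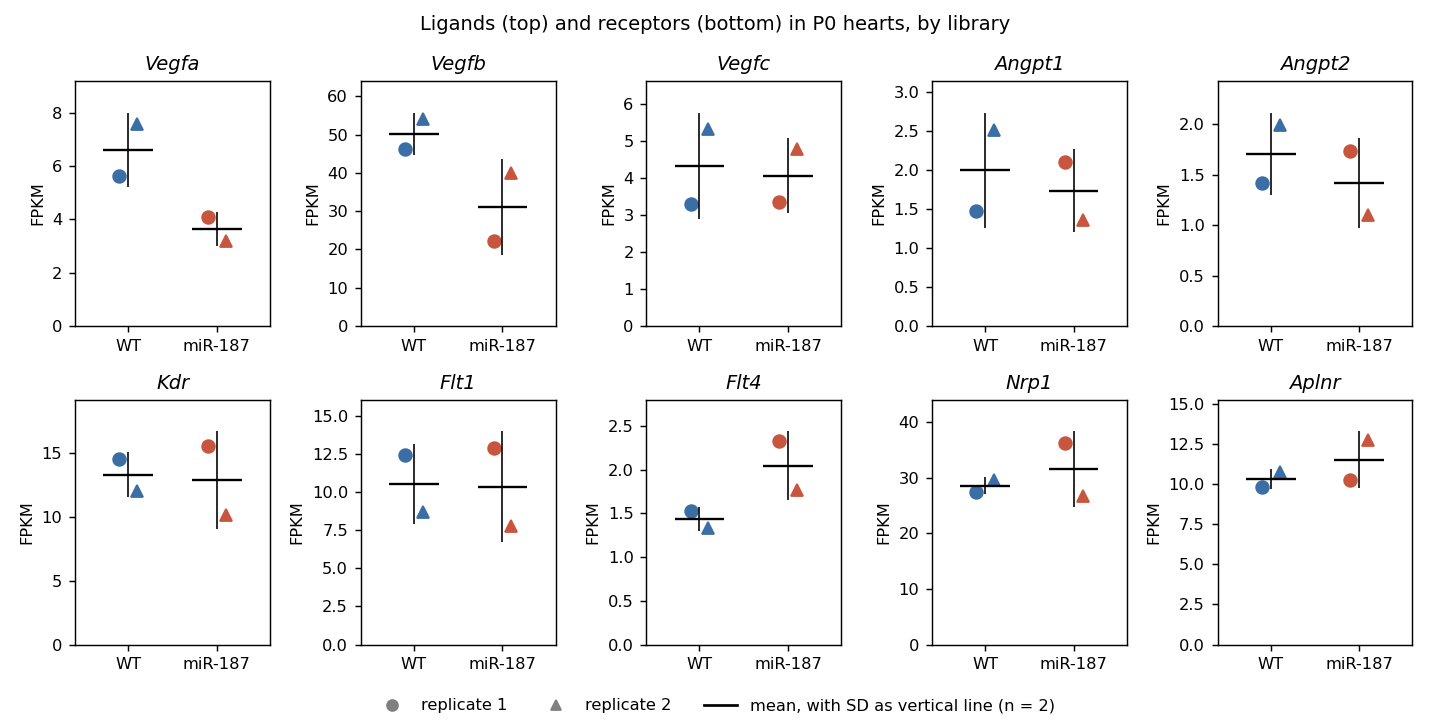
FPKM of each gene in the 4 libraries (vertical axes, each starting at 0), with ligands in the upper row and receptors, including the coreceptor *Nrp1*, in the lower row. Circles are replicate 1, triangles replicate 2, horizontal lines means and vertical lines the SD of 2 libraries; the groups are apart for *Vegfa*, *Vegfb* and *Flt4* and overlap for the other 7.

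Among the ligands, *Vegfa* had the smallest unadjusted p of the 10 genes. Replicates 1 and 2, always named in this order, stood at 5.63 and 7.59 FPKM among WT hearts, whereas the miR-187 hearts stood at 4.09 and 3.18 FPKM. Both miR-187 values lay below both WT values, the nearest pair being 1.37-fold apart. The WT mean of 6.61 ± 1.39 FPKM compared with 3.64 ± 0.646 FPKM for miR-187 (SD, n = 2 each), a ratio of 0.550. On the log2(FPKM + 1) scale, which is used for all differences below, the difference was -0.71 (standard error 0.35, 95% interval -1.44 to 0.02). The unadjusted p was 0.0568 and the limma adjusted p 1.00, and 525 genes had a smaller p. The difference was larger than that between the replicates in either group (0.37 in WT replicate 2 over replicate 1, and 0.29 in miR-187 replicate 1 over replicate 2). The same held for *Flt4* and for 14.4% of all genes tested.

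*Vegfb*, a VEGF abundant in heart muscle, was the most highly expressed ligand. The WT libraries gave 46.3 and 54.1 FPKM, whereas 22.1 and 39.9 FPKM were found for miR-187. The lowest value was thus that of miR-187 replicate 1, while miR-187 replicate 2 lay 1.16-fold below the nearer WT library. Its means were 50.2 ± 5.49 and 31.0 ± 12.6 FPKM in WT and miR-187 (SD, n = 2 each), and the miR-187 libraries differed from each other 1.80-fold. The log2 difference of -0.73 (standard error 0.41, 95% interval -1.59 to 0.13, limma unadjusted p = 0.0911, adjusted p = 1.00) became -0.32 without miR-187 replicate 1 and -1.14 without miR-187 replicate 2.

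*Vegfc*, the ligand of FLT4, was at 3.30 and 5.33 FPKM among WT hearts, compared with 3.34 and 4.78 FPKM for miR-187. The groups overlapped, and replicate 2 was the higher library in both. Its log2 difference was -0.06 with a 95% interval from -0.80 to 0.68. The summed level of the 3 VEGF ligands came to 55.2 and 67.0 FPKM for WT, compared with 29.6 and 47.9 FPKM for miR-187, of which *Vegfb* made up 74.8% to 83.8%. *Vegfc* was 5.98% and 7.95% of the sum in WT and 11.3% and 9.97% in miR-187. The smaller sum in miR-187 came from *Vegfa* and *Vegfb*, whose differences did not pass the test.

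Of the receptors, *Kdr*, which carries the main VEGF-A signal, was measured at 14.5 and 12.0 FPKM for WT, compared with 15.5 and 10.2 FPKM for miR-187. The highest and the lowest value were both from miR-187 libraries. Means were 13.3 ± 1.76 and 12.9 ± 3.80 FPKM (SD, n = 2 each), so that the log2 difference was -0.07 (standard error 0.38, limma unadjusted p = 0.863, adjusted p = 1.00). The 95% interval ran from -0.86 to 0.72, which on this scale leaves room for any change between 0.553-fold and 1.65-fold. The test therefore does not show that the receptor was at the same level in both groups.

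*Flt1*, the VEGF-A and VEGF-B receptor, stood at 12.4 and 8.70 FPKM for WT, compared with 12.9 and 7.79 FPKM for miR-187. As for *Kdr*, replicate 1 was the higher library in both groups. The log2 difference between groups was -0.04 (95% interval -0.84 to 0.75), smaller than the replicate differences of 0.47 in WT and 0.66 in miR-187. *Kdr* and *Flt1* were each the nearest of the 10 to the other. The root mean square difference between their log2 values over the 4 libraries was 0.0849, after centring on each gene's mean. Gene pairs outside the 10 were not compared, so how common such a distance is remains unknown.

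*Flt4*, the receptor for VEGF-C, was expressed at 1.53 and 1.33 FPKM among WT hearts, compared with 2.32 and 1.77 FPKM for miR-187. Both miR-187 values lay above both WT values, the nearest pair being 1.16-fold apart. The means were 1.43 ± 0.137 and 2.04 ± 0.390 FPKM (SD, n = 2 each), a ratio of 1.43. The log2 difference was 0.32 (standard error 0.35, 95% interval -0.40 to 1.04, limma unadjusted p = 0.366, adjusted p = 1.00), and without miR-187 replicate 1 it was 0.19. The +1 in the scale understates differences at this low level.

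*Nrp1*, the coreceptor, was the second most abundant of the 10 genes, with 27.5 and 29.6 FPKM for WT, compared with 36.3 and 26.7 FPKM for miR-187. The miR-187 libraries enclosed the WT values, and the log2 difference was 0.12 (95% interval -0.69 to 0.94). Its mean over the 4 libraries was below that of *Vegfb* (30.04 against 40.6 FPKM), but the ranges of both genes overlapped. In the miR-187 group the mean of *Nrp1* was slightly above that of *Vegfb* (31.5 against 31.0 FPKM). This order held in replicate 1 (36.3 against 22.1 FPKM) and was reversed in replicate 2 (26.7 against 39.9 FPKM).

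The angiopoietins were at low levels, ranked the 4 libraries in the same order and overlapped between the groups. *Angpt1*, the activating ligand of TEK, was at 1.48 and 2.52 FPKM for WT, compared with 2.11 and 1.36 FPKM for miR-187. *Angpt2* was at 1.41 and 1.99 FPKM for WT, compared with 1.73 and 1.10 FPKM for miR-187. For both genes WT replicate 2 was the highest and miR-187 replicate 2 the lowest library. Each was the nearest of the 10 to the other, at a root mean square difference of 0.0729. The +1 in the scale shrinks such distances at this level, and gene pairs outside the 10 were not compared. The log2 differences between groups were -0.12 for *Angpt1* (95% interval -0.87 to 0.62) and -0.17 for *Angpt2* (95% interval -0.90 to 0.57). *Aplnr*, the receptor of the apelin peptides, was at 9.85 and 10.7 FPKM for WT, compared with 10.3 and 12.8 FPKM for miR-187. Its highest value was 1.296 times its lowest, the narrowest span of the 10 genes, and its log2 difference was 0.14 (95% interval -0.62 to 0.90).

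**Figure D2:**
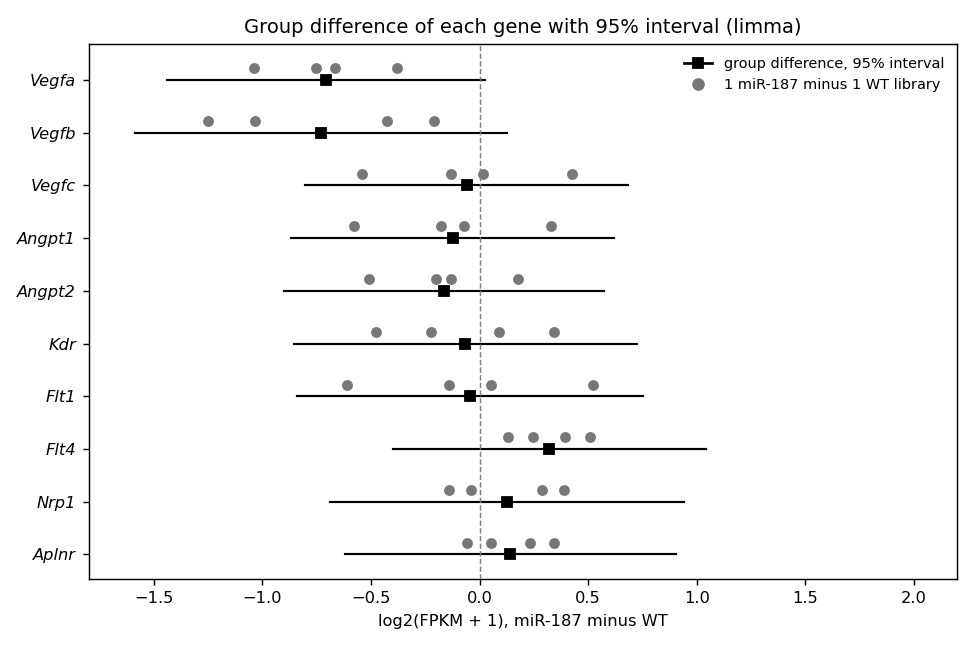
Difference between miR-187 and WT on the log2(FPKM + 1) scale (horizontal axis) for each gene. Squares and lines are the limma difference and its 95% interval, all of which include 0; grey circles are the 4 differences between 1 miR-187 and 1 WT library, which all fall on the same side of 0 for *Vegfa*, *Vegfb* and *Flt4*.

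FPKM divides by transcript length, so levels of different genes can be set side by side. By the mean over the 4 libraries the order was *Vegfb*, *Nrp1*, *Kdr*, *Aplnr*, *Flt1*, *Vegfa*, *Vegfc*, *Angpt1*, *Flt4* and *Angpt2*. Neighbours whose ranges over the libraries did not overlap were *Nrp1* and *Kdr*, *Flt1* and *Vegfa*, and *Vegfc* and *Angpt1*. The other neighbours in the order could not be separated by their spread. Among the genes tested, *Vegfb* stood between percentiles 85.9 and 93.0 of its library and *Kdr* between percentiles 75.6 and 82.4. *Angpt2* stood between percentiles 10.3 and 28.8.

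Within-group spread was often as large as the difference between groups. Over all genes with a mean of 10 to 60 FPKM, the median deviation of a library from the gene mean on the log2 scale was -0.16 and 0.14 for WT, compared with 0.02 and -0.04 for miR-187. Between 1 and 2.5 FPKM, the level of *Flt4* and the angiopoietins, it was 0.11, -0.09, 0.09 and -0.14 in the same order. Between 2.5 and 10 FPKM, the level of *Vegfa* and *Vegfc*, it was -0.02, 0.04, 0.11 and -0.15. In miR-187 replicate 2, where this median was lowest, *Vegfa* deviated by -0.50 and *Vegfc* by 0.18. In miR-187 replicate 1, where it was highest, *Vegfa* deviated by -0.21 and *Vegfc* by -0.24. Of the 40 deviations of the 10 genes in the 4 libraries, 19 lay on the same side of 0 as the median of all genes in their band of level (1 to 2.5, 2.5 to 10 or 10 to 60 FPKM) and 21 on the opposite side. The opposite-side count was 7 of 10 in WT replicate 1, 6 of 10 in WT replicate 2 and 4 of 10 in each miR-187 library. The same count was not made over all genes tested, and some of the medians lay close to 0. These counts are therefore no result about the list. The part of these library differences in the values of the 10 genes was not tested.

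**Figure D3:**
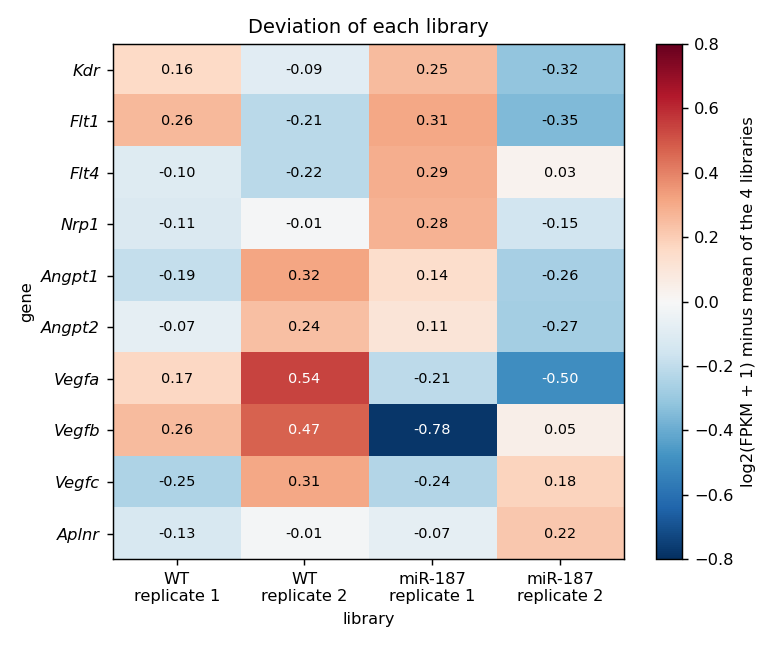
Deviation of each library (columns) from the mean of the 4 libraries for each gene (rows), as log2(FPKM + 1), red above and blue below the mean. *Kdr* and *Flt1* rank the 4 libraries in the same order, as do *Angpt1* and *Angpt2*, while the strongest deviation is that of *Vegfb* in miR-187 replicate 1 (-0.78).

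Ratios between genes of the same library do not change with any library-wide scaling and were computed for all 45 pairs, as a description chosen after the values had been seen. The groups did not overlap for 18 of the 45 ratios, against 27.8% of the ratios between all tested genes that were above 0 in every library. The 45 ratios share 10 genes and are not separate comparisons, so the count is no result about the list. Of the 18 ratios, 8 contained *Vegfa* and 7 *Flt4*. Among the 21 pairs without *Vegfa*, *Vegfb* and *Flt4* there was 1, *Nrp1* to *Angpt2*. The ratio of *Vegfa* to *Kdr*, its main receptor, was 0.387 and 0.630 in WT and 0.263 and 0.313 in miR-187. The ratio of *Vegfa* to *Nrp1* was 0.205 and 0.256 in WT and 0.113 and 0.119 in miR-187. For both ratios each miR-187 library lay below each WT library.

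Among the receptors, the ratio of *Kdr* to *Flt1* stayed between 1.17 and 1.38 in the 4 libraries and overlapped between groups. The ratio of *Kdr* to *Flt4* was 9.52 and 9.03 in WT and 6.70 and 5.75 in miR-187, and *Flt4* made up 5.36% and 6.04% of the summed receptor FPKM in WT and 7.54% and 8.97% in miR-187. The sum of the 3 receptors itself came to 28.5 and 22.1 FPKM for WT, compared with 30.8 and 19.7 FPKM for miR-187, with overlapping groups. *Angpt1* exceeded *Angpt2* in every library, by a ratio of 1.05 to 1.27. No test was run on the ratios.

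**Figure D4:**
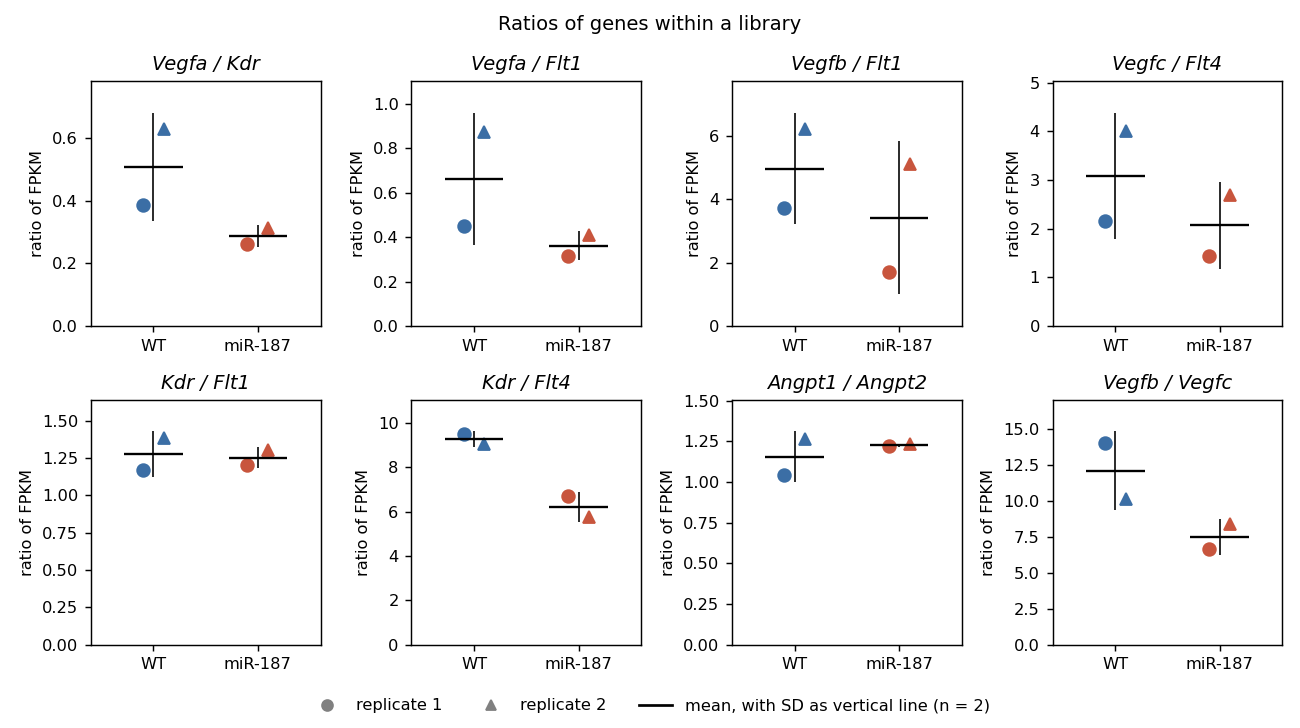
Ratios of FPKM between genes of the same library (vertical axes from 0), with symbols as in the plot of FPKM by library. The groups are apart for *Vegfa* to *Kdr*, *Vegfa* to *Flt1*, *Kdr* to *Flt4* and *Vegfb* to *Vegfc*, and overlap for *Vegfb* to *Flt1*, *Vegfc* to *Flt4*, *Kdr* to *Flt1* and *Angpt1* to *Angpt2*.

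Under the alternative settings that kept the 4 libraries, *Flt1* changed sign, with libraries scaled by trimmed means of M-values (TMM; 0.0025), and the other genes kept their direction in each setting that tested them. The groups of *Vegfa*, *Vegfb* and *Flt4* did not overlap, so leaving out 1 library could not change the sign of their differences and is no sign of stability; each of the other 7 genes, whose groups overlapped, changed sign without at least 1 library. Without 1 library, the log2 difference ran from -0.90 to -0.52 for *Vegfa*, from -1.14 to -0.32 for *Vegfb* and from 0.19 to 0.45 for *Flt4*. For *Kdr* it ran from -0.35 to 0.22 and for *Flt1* from -0.38 to 0.29. The adjusted p stayed above 0.05 for each of the 10 genes under every setting that tested it.

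**Figure D5:**
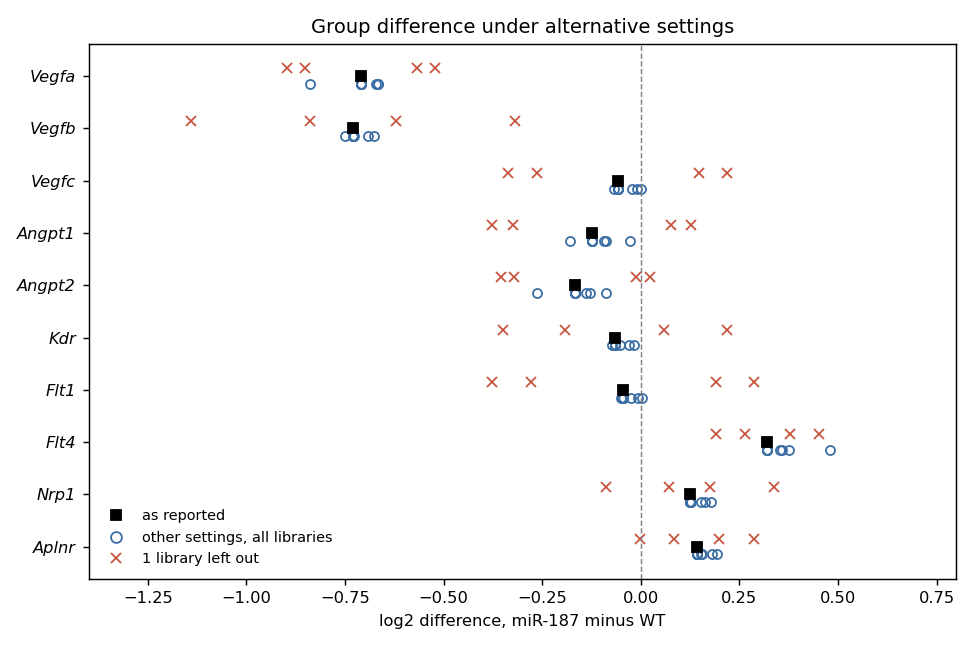
Log2 difference between miR-187 and WT for each gene (horizontal axis) as reported (squares), under other settings with all libraries (open circles) and with 1 library left out (crosses). The crosses run from -1.14 to -0.32 for *Vegfb* and from -0.38 to 0.29 for *Flt1*; those of *Vegfa*, *Vegfb* and *Flt4* cannot cross 0, because the groups of these genes do not overlap.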

How the data were processed

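The file that the authors deposited holds FPKM, 1 column per library, for mouse Ensembl gene IDs. The submitters' processing notes name HISAT2, StringTie and DESeq2 with build mm10, without versions or roles; annotation, strand use and filters are not given in the sources used here. FPKM is relative to the mapped total of a library, so abundant transcripts can lower all other values. The sums of FPKM ran from 750826 to 807359, but the libraries stood apart in other ways: 17047 IDs reached 1 FPKM in WT replicate 1 and 13270 to 15021 in the others, 44825 IDs were above 0 in miR-187 replicate 2 and 50294 to 53180 in the others, and the median of the tested genes was 3.49 FPKM in miR-187 replicate 2 and 3.87 to 4.21 FPKM in the others. Low values came in no whole-read steps (the fullest bin of 0.02 log2 held 1.01% of 1580 ratios of low WT values), so depth is unknown and no counting interval or floor is given.

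Values were transformed as log2(FPKM + 1). For IDs averaging 1 FPKM or more, limma 3.58.1 under R 4.3.3 compared the groups (eBayes with trend, no replicate block), two-sided, with Benjamini-Hochberg adjustment over all 14325 genes, a threshold of 0.05 and 95% intervals from the same fit. The procedure was tested on simulated data. Figures used matplotlib 3.10.9 in Python 3.11.15.

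The 10 genes, lists and tests were chosen with earlier results of these data known. The rule for named genes took all 10, and for each the nearest other by centred log2 values. The other 15 lists, of pathway genes and cell type markers, were not analysed here, because the RefSeq table holds 0 Ensembl IDs. For the 10 genes, 10 symbols matched that table. Alternatives changed the pseudocount (0.1), the minimum mean (0.1, 5 or none), the scaling (median centring, quantile normalization, or unweighted trimmed means of M-values, TMM, trimming 30% by ratio and 5% by level) or the fit (no trend, or replicate number as a block), or left out each library in turn; robust eBayes was chosen after seeing the data.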

Additional observations from a re-analysis of the deposited data

How the results depend on the processing

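Over all alternatives, 0 of the 10 genes passed the adjusted threshold. Of 136 values of the 10 genes, 124 kept their direction, and of the 12 that changed sign 11 came from leaving out 1 library; the other was *Flt1* with TMM factors (0.0025). Leaving out 1 library could not change the sign for *Vegfa*, *Vegfb* or *Flt4*, whose groups do not overlap. With 1 library left out, where the lone library of an arm is assumed to vary like the others, log2 differences ran from -0.34 to 0.22 for *Vegfc*, -0.0895 to 0.34 for *Nrp1*, -0.38 to 0.13 for *Angpt1*, -0.35 to 0.0228 for *Angpt2* and -0.0026 to 0.29 for *Aplnr*; those of the other genes are given above. The unadjusted limma p of *Vegfa* was 0.0452 with median centring, 0.0491 with TMM factors and 0.0446 with quantile normalization. In these settings, in the same order, 383, 410 and 458 of the 14325 genes tested had an unadjusted p under 0.05.

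Counts over all genes moved more: of 0 higher and 1 lower gene, a minimum mean of 0.1 FPKM gave 31 and 15, robust eBayes 4 and 2, while quantile normalization, a minimum mean of 5 FPKM and the lack of a filter each gave 0 lower genes; no cause was tested. Leaving out 1 library gave 11 to 62 higher and 14 to 56 lower genes. With the replicate block, 33 genes were higher and 18 lower, 0 of them among the 10. Same-numbered libraries did not deviate together over the tested genes (r = -0.0675), and no label ties equal numbers to a litter or batch, so they were not taken as pairs. A minimum mean of 5 FPKM tested 6 of the 10 genes. Depth limits cannot be given without counts.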
